A study of Homo sapiens with 6 samples.

Results

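The 38 genes described here carry glucose into glycolysis and serve the response to low oxygen. They form a list of human genes and were found in the count table by their Entrez identifiers. All 38 were present among the 23459 genes of the table, and 37 had enough reads to be tested. By role they are 3 transporters of glucose and lactate, 16 glycolytic enzymes, 4 kinases that set the flow through the pathway, 2 alpha subunits of the hypoxia-inducible factors (HIF), 2 prolyl hydroxylases that sense oxygen, and 11 other hypoxia-responsive genes. The counts come from T47D-YA cells, a line derived from the luminal breast cancer line T47D that carries the A form of the progesterone receptor. In 2 libraries the cells held an empty vector, in 2 they overexpressed fibroblast growth factor 2 (FGF2) as its 18 kDa isoform, and in 2 as its 22.5 kDa isoform. The 18 kDa form is the one cells export, whereas the larger forms reside mainly in the nucleus. Whether each line is a clone or a pool, the promoter of the vectors, the oxygen tension and the density of the cultures are not stated in the sources used here.

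Glycolysis splits glucose into pyruvate in the cytosol, and lactate dehydrogenase turns pyruvate into lactate, which monocarboxylate transporters export. When oxygen is plentiful, the prolyl hydroxylases of the EGLN family mark HIF alpha subunits for destruction. When oxygen is scarce the alpha subunits persist, bind the core sequence of the hypoxia response element and raise the mRNAs of glucose transporters, glycolytic enzymes, pyruvate dehydrogenase kinases, angiogenic factors and carbonic anhydrase IX. Breast cancer cells are known for using glycolysis also in the presence of oxygen.

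The libraries held between 5317687 and 6817324 counted reads, well short of the sequencing yield stated in the labels, for a reason that no source used here gives. FGF2 itself had 12 and 13 reads in the empty vector libraries, 6259 and 4365 with 18 kDa, and 8731 and 7758 with 22.5 kDa FGF2. Its overexpression thus matched the labels, whereas reads counted by gene do not tell the isoforms apart. Both 22.5 kDa libraries held more FGF2 reads than both 18 kDa libraries, and the part of this in differences between the isoforms was not tested. Nothing in the labels ties the numbered samples to separate cultures, so the p-values measure a spread between libraries that may be only technical. On the second principal component of all tested genes, which held 25.5% of the variance, library 1 of the 18 kDa group (-48.0) lay far from library 2 (-2.65), and library 1 of the 22.5 kDa group (42.7) far from library 2 (8.29). The hypoxia genes set the 2 empty vector libraries apart, as shown further on. All 10 luminal epithelial markers checked, among them KRT8, GATA3 and FOXA1, were read in every library and together held 1.44 to 2.30% of its reads. Markers of other cell types were near 0: the 7 fibroblast markers together held at most 0.00636% of a library's reads, and the 5 leukocyte, 5 endothelial and 4 adipocyte markers each less. CD3E of T cells and TEK of endothelium had no read in any library.

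Few hypoxia and glycolysis genes changed with 18 kDa FGF2, and more did with 22.5 kDa FGF2. The difference between these counts was not tested. Calls depended on single libraries of the empty vector and of the FGF2 groups, and the sign of the members' median on single empty vector libraries. With 18 kDa FGF2, 2 members rose and 3 fell among 37 tested (13.5%), where 8.88% of all 13124 tested genes passed (4.09% higher, 4.79% lower). With 22.5 kDa FGF2, 7 members rose and 2 fell (24.3%), where 10.9% of all genes passed (5.02% higher, 5.88% lower). Between the isoforms 1 member passed (2.7%), against 1.58% of all genes (1.13% higher, 0.45% lower). Passing means an adjusted p under 0.05 in edgeR's quasi-likelihood test. The CPM of the groups did not overlap for 7 members higher and 7 lower with 18 kDa FGF2 (all genes 25% and 26.9%, together 52%). The same held for 11 higher and 6 lower with 22.5 kDa FGF2 (26% and 27%, together 52.9%), and for 12 higher and 3 lower between the isoforms (19.1% and 19%, together 38.1%). CPM are reads scaled to a common library size. The median log2 fold change of the 37 members was 0.14 with 18 kDa and 0.17 with 22.5 kDa FGF2, where the medians of all tested genes were -0.05 and 0.01. Both comparisons use the same empty vector libraries. Which of these was left out turned the members' medians: without empty vector library 1 they were -0.08 and -0.01, and without library 2 they were 0.32 and 0.46. The medians of all tested genes were -0.03 and 0.02 without library 1, and -0.03 and 0.02 without library 2. Calls moved as well with the library that was left out. A group left with 1 library shows no spread of its own, so such calls are not counted in this paragraph. Scaling by library totals alone left 2 and 4 members, and 920 and 1174 of all 13124 tested genes.

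**Figure D1:**
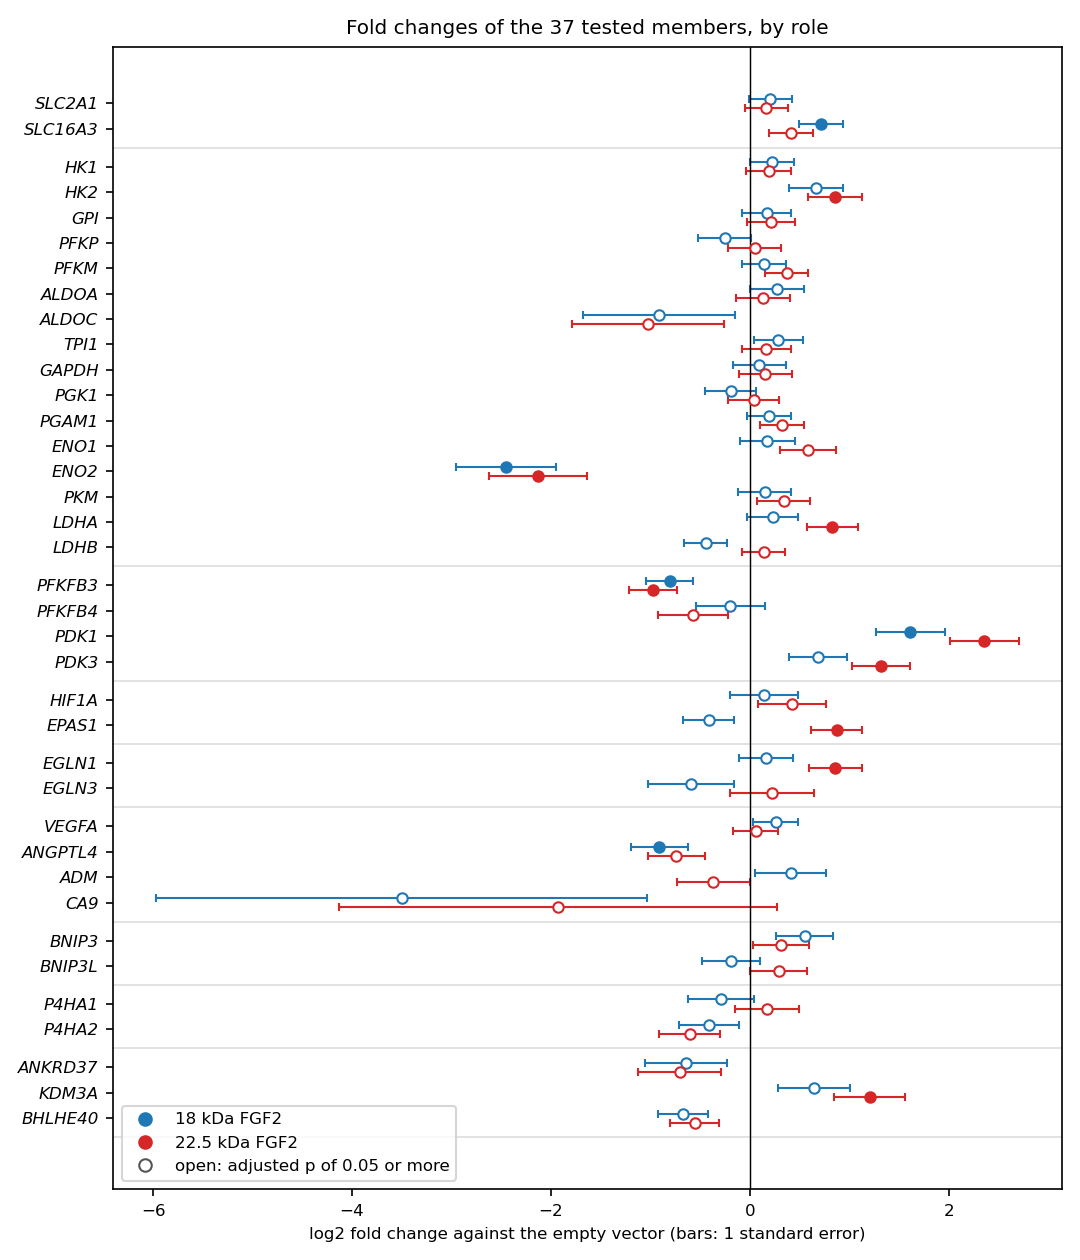
Log2 fold change (horizontal axis) of each of the 37 tested members with 18 kDa (blue) and 22.5 kDa FGF2 (red) against the empty vector, grouped by role, with bars of 1 standard error and filled points where the adjusted p is under 0.05. Most members lie within 1 log2 unit of 0, PDK1 lies highest, ENO2 is the lowest that passed, and CA9 has the widest bars.

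The promoters of these genes were searched for the short core sequence that HIFs recognise. RefSeq (GRCh38.p14) gave 63 windows of 300 bases, from 250 before to 50 after an annotated start, for 35 of the 38 members, since some genes have several starts. The core of the hypoxia response element was searched as ACGTG and GCGTG on both strands, and overlapping matches, as in the palindrome CACGTG, were counted once. A match was present in 43 of the 63 windows (68.3%), in 60.9% of the 15028 windows of tested genes and in 48.4% of all 35116 windows. In 32 of the 35 genes at least 1 window held it, and PGAM1, EGLN3 and P4HA2 held none. The like share of genes was not taken over all tested genes, and genes with several windows have more chances of a match. A match is a description of letters and not a bound site. The 250 bases upstream of 5 genes are printed because results below turn on them, with matches in capitals: CA9 (chr9:35673678-35673927, plus strand), ALDOC (chr17:28576896-28577145, minus strand) and ENO2 (chr12:6914330-6914579, plus strand), the 3 members that differed most between the empty vector libraries, and LDHA (chr11:18394313-18394562, plus strand, 1 of its 2 starts) and PDK1 (chr2:172555840-172556089, plus strand, 1 of its 2 starts), which rose with 22.5 kDa FGF2.
CA9: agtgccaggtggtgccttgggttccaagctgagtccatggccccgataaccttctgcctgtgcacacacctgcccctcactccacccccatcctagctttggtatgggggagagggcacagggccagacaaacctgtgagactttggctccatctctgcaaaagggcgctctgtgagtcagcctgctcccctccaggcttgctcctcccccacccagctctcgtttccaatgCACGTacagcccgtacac
ALDOC: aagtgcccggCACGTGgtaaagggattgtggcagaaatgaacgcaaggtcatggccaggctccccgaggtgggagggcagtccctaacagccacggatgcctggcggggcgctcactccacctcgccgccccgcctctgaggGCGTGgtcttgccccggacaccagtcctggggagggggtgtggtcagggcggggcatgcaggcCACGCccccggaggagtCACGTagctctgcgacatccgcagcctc
ENO2: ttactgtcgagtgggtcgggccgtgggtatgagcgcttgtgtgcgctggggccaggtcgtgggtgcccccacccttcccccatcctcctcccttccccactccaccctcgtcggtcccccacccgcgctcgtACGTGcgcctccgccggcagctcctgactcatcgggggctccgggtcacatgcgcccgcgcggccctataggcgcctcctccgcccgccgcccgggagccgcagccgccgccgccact
LDHA: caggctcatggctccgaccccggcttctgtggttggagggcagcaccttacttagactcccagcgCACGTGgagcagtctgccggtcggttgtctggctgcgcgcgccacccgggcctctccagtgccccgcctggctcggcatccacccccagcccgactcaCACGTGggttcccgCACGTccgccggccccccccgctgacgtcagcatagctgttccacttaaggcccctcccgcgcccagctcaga
PDK1: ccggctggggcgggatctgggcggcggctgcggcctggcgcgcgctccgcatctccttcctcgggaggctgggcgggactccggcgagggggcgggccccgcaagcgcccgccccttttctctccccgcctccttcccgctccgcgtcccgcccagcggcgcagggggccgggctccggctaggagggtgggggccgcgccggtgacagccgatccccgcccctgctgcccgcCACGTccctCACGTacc
Upstream of CA9 there was 1 match, beginning 18 bases before the start, and upstream of ENO2 also 1. ALDOC had 4 and LDHA 3 in the printed bases. PDK1 had 2 close to the start in the printed window and none in the window of its other start. LDHA and PDK1, which rose, and ENO2, which fell, thus all held the core, as did 60.9% of the windows of tested genes.

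Among the transporters, the lactate exporter gene SLC16A3 rose with 18 kDa FGF2. SLC16A3 (Entrez 9123), which encodes the monocarboxylate transporter MCT4 of glycolytic cells, stood at 245 and 279 CPM in the empty vector libraries, 437 and 423 with 18 kDa FGF2, and 304 and 393 with 22.5 kDa FGF2. Both FGF2 groups lay above both empty vector libraries. The change passed with 18 kDa (log2 fold change 0.72 with SE 0.22 and adjusted p = 0.0404) but not with 22.5 kDa FGF2 (0.41 with SE 0.22 and adjusted p = 0.265). The 18 kDa call missed the threshold without empty vector library 1 (0.481), empty vector library 2 (0.2) or 18 kDa library 1 (0.113), with adjusted p-values of 0.00255 to 0.481 over its 14 alternatives. SLC2A1, the gene of the basal glucose transporter GLUT1, was at 115 and 124 CPM in the empty vector libraries, 158 and 118 with 18 kDa FGF2, and 125 and 143 with 22.5 kDa FGF2. The 18 kDa libraries overlapped with the empty vector and the 22.5 kDa libraries lay just above it, and neither comparison with the empty vector passed (adjusted p = 0.656 and 0.727). SLC2A3, the gene of the high-affinity transporter GLUT3, had 0 to 2 reads in each library and was not tested.

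Of the 16 glycolytic enzyme genes, 1 fell with 18 kDa FGF2, and with 22.5 kDa FGF2 2 rose and 1 fell. The gene that fell with both was ENO2 (Entrez 2026), which encodes the gamma enolase best known from neurons. It was at 8.76 and 29.1 CPM in the empty vector libraries, 3.53 and 3.34 with 18 kDa FGF2, and 4.58 and 4.01 with 22.5 kDa FGF2. Both empty vector libraries lay above all 4 others, but they differed from each other more than 3-fold (log2 difference 1.69). The tests gave log2 fold change -2.45 with SE 0.50 and adjusted p = 0.00379 with 18 kDa, and -2.13 with SE 0.49 and adjusted p = 0.00838 with 22.5 kDa FGF2. The 18 kDa call on ENO2 missed the threshold without empty vector library 2 (0.19) and without library 1 of both FGF2 groups (0.0956), with adjusted p-values of 8.57e-07 to 0.19 over its 14 alternatives. The 22.5 kDa call missed the threshold without empty vector library 2 (0.373), 22.5 kDa library 1 (0.0899) or 22.5 kDa library 2 (0.136) and without library 1 of both FGF2 groups (0.106), with adjusted p-values of 1.5e-05 to 0.373 over its 13 alternatives.

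Hexokinase 2 and lactate dehydrogenase A rose with 22.5 kDa FGF2. HK2 (Entrez 3099), the inducible hexokinase that traps glucose in the cell, was at 20.9 and 40.2 CPM in the empty vector libraries, 46.5 and 50.2 with 18 kDa FGF2, and 58.6 and 51.9 with 22.5 kDa FGF2. All 4 FGF2 libraries exceeded both empty vector libraries, of which library 1 was the lower. The 22.5 kDa change passed (log2 fold change 0.86 with SE 0.27 and adjusted p = 0.0446) and that with 18 kDa FGF2 did not (0.66 with SE 0.27 and adjusted p = 0.156). The HK2 call missed the threshold without empty vector library 1 (0.626), 22.5 kDa library 1 (0.216) or 22.5 kDa library 2 (0.142), with scaling by library totals alone (0.111), with DESeq2 (0.0644) and without library 1 of both FGF2 groups (0.0698), with adjusted p-values of 0.00788 to 0.626 over its 13 alternatives. LDHA (Entrez 3939), whose product favours the conversion of pyruvate to lactate, was at 441 and 796 CPM in the empty vector libraries, 766 and 683 with 18 kDa FGF2, and 1056 and 1142 with 22.5 kDa FGF2. The 22.5 kDa libraries were the highest, and the 18 kDa libraries fell between those of the empty vector. LDHA rose with 22.5 kDa FGF2 (log2 fold change 0.83 with SE 0.26 and adjusted p = 0.0395) and did not pass with 18 kDa (0.23 with SE 0.26 and adjusted p = 0.682). This call missed the threshold without empty vector library 1 (0.633), 22.5 kDa library 1 (0.11) or 22.5 kDa library 2 (0.166), with scaling by library totals alone (0.064) and without library 1 of both FGF2 groups (0.0535), with adjusted p-values of 0.00889 to 0.633 over its 13 alternatives. Its paralog LDHB, whose product favours the reverse reaction, ranged over 59.6 to 108 CPM and did not pass (-0.44 with SE 0.22 and adjusted p = 0.255 with 18 kDa, and 0.14 with SE 0.22 and adjusted p = 0.783 with 22.5 kDa FGF2).

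The 12 remaining enzyme genes did not pass in any comparison. The 4 with the most reads, a quantity that also depends on transcript length, come first. ALDOA, the main aldolase, was at 3184 and 4349 CPM in the empty vector libraries, 4486 and 4601 with 18 kDa FGF2, and 3312 and 4940.0 with 22.5 kDa FGF2. GAPDH, which makes the first NADH of the pathway, was at 2827 and 3662 CPM in the empty vector libraries, 3558 and 3372 with 18 kDa FGF2, and 2985 and 4239.8 with 22.5 kDa FGF2. ENO1, the ubiquitous enolase, was at 2904 and 4117 CPM in the empty vector libraries, 4089 and 3832 with 18 kDa FGF2, and 4111 and 6405 with 22.5 kDa FGF2. In all 3 genes library 2 of the empty vector exceeded library 1, and 22.5 kDa library 2 was the highest. PKM, the pyruvate kinase gene, was at 2785 and 3459 CPM in the empty vector libraries, 3622 and 3295 with 18 kDa FGF2, and 3290.5 and 4612 with 22.5 kDa FGF2. Between them these genes make up most of the enzyme reads: the 16 enzymes together took 1.57 and 2.03% of the reads of the empty vector libraries, 1.94 and 1.94% with 18 kDa, and 1.92 and 2.40% with 22.5 kDa FGF2. These shares overlapped between the groups. The ubiquitous hexokinase HK1 ranged over 298 to 431 CPM, the isomerase GPI over 562 to 905 CPM and the phosphofructokinases PFKP and PFKM over 215 to 392 CPM and 191 to 299 CPM. The isomerase TPI1 ranged over 663 to 1018 CPM, the ATP-forming kinase PGK1 over 564 to 935 CPM and the mutase PGAM1 over 126 to 208 CPM. ALDOC, the aldolase of brain, was at 98.5 and 350.1 CPM in the empty vector libraries, 97 and 141 with 18 kDa FGF2, and 77.7 and 144 with 22.5 kDa FGF2, so that empty vector library 2 alone stood out. It did not pass (-0.91 with SE 0.76 and adjusted p = 0.615 with 18 kDa, and -1.02 with SE 0.76 and adjusted p = 0.547 with 22.5 kDa FGF2), but without empty vector library 1 it did, at -1.56 (adjusted p = 4.99e-05) and -1.66 (adjusted p = 8.31e-06), and over its alternatives the adjusted p-values ran from 4.99e-05 to 0.879 and from 8.31e-06 to 0.888. Several of these enzymes, GAPDH among them, have processed pseudogenes that could take reads, and the sources used here do not say how such reads were counted.

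Of the 4 kinases that set the flow through glycolysis, PDK1 rose and PFKFB3 fell in both FGF2 groups, and PDK3 rose with 22.5 kDa FGF2. PDK1 (Entrez 5163) encodes pyruvate dehydrogenase kinase 1, which blocks the entry of pyruvate into the mitochondrial cycle and is a known HIF target. Its levels were 6.62 and 9.57 CPM in the empty vector libraries, 16.6 and 33 with 18 kDa FGF2, and 43.2 and 39.7 with 22.5 kDa FGF2. All 4 FGF2 libraries lay above both empty vector libraries, and the 22.5 kDa libraries above those of 18 kDa. The mean rose from 8.09 ± 2.09 to 24.8 ± 11.6 CPM with 18 kDa (log2 fold change 1.61 with SE 0.35 and adjusted p = 0.00335). With 22.5 kDa FGF2 it was 41.5 ± 2.49 CPM (SD, n = 2 each), 5.12-fold higher than the empty vector (log2 fold change 2.36 with SE 0.35 and adjusted p = 5.92e-05). The 22.5 kDa call passed under all 13 alternatives tried, with adjusted p-values of 4.95e-11 to 0.0127. The 18 kDa call missed the threshold without empty vector library 1 (0.0531) and with scaling by library totals alone (0.0508), with adjusted p-values of 7.31e-07 to 0.0531 over its 14 alternatives. PDK3 (Entrez 5165), a further kinase of this family, was at 13.2 and 18.4 CPM in the empty vector libraries, 24.7 and 26 with 18 kDa FGF2, and 35.3 and 43.7 with 22.5 kDa FGF2. The groups did not overlap, with the empty vector lowest and 22.5 kDa FGF2 highest. It rose with 22.5 kDa FGF2 (log2 fold change 1.32 with SE 0.29 and adjusted p = 0.00312) and did not pass with 18 kDa (0.68 with SE 0.29 and adjusted p = 0.176). The PDK3 call missed the threshold without empty vector library 1 (0.117) or 22.5 kDa library 2 (0.0717), with adjusted p-values of 6.39e-05 to 0.117 over its 13 alternatives.

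PFKFB3 (Entrez 5209) encodes the enzyme that makes fructose 2,6-bisphosphate, the activator of phosphofructokinase. It was at 104 and 152 CPM in the empty vector libraries, 86.1 and 60.3 with 18 kDa FGF2, and 71.6 and 58.3 with 22.5 kDa FGF2. Both empty vector libraries were above all 4 FGF2 libraries. It fell with 18 kDa (log2 fold change -0.81 with SE 0.24 and adjusted p = 0.0349) and with 22.5 kDa FGF2 (-0.98 with SE 0.24 and adjusted p = 0.00852). The fall with 18 kDa FGF2 missed the threshold without empty vector library 2 (0.515), 18 kDa library 2 (0.222), 22.5 kDa library 1 (0.0661) or 22.5 kDa library 2 (0.0869), with scaling by library totals alone (0.0753), with DESeq2 (0.0592) and with only both compared groups in the model (0.069), with adjusted p-values of 0.000281 to 0.515 over its 14 alternatives. The fall with 22.5 kDa FGF2 missed the threshold without empty vector library 2 (0.257), 22.5 kDa library 1 (0.0504) or 22.5 kDa library 2 (0.159), with adjusted p-values of 0.000148 to 0.257 over its 13 alternatives. PFKFB4, its hypoxia-inducible relative, was at 25.4 and 55.9 CPM in the empty vector libraries, 36.1 and 34.8 with 18 kDa FGF2, and 20.8 and 34.1 with 22.5 kDa FGF2, with overlapping groups and no passing test (adjusted p = 0.813 and 0.371).

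**Figure D2:**
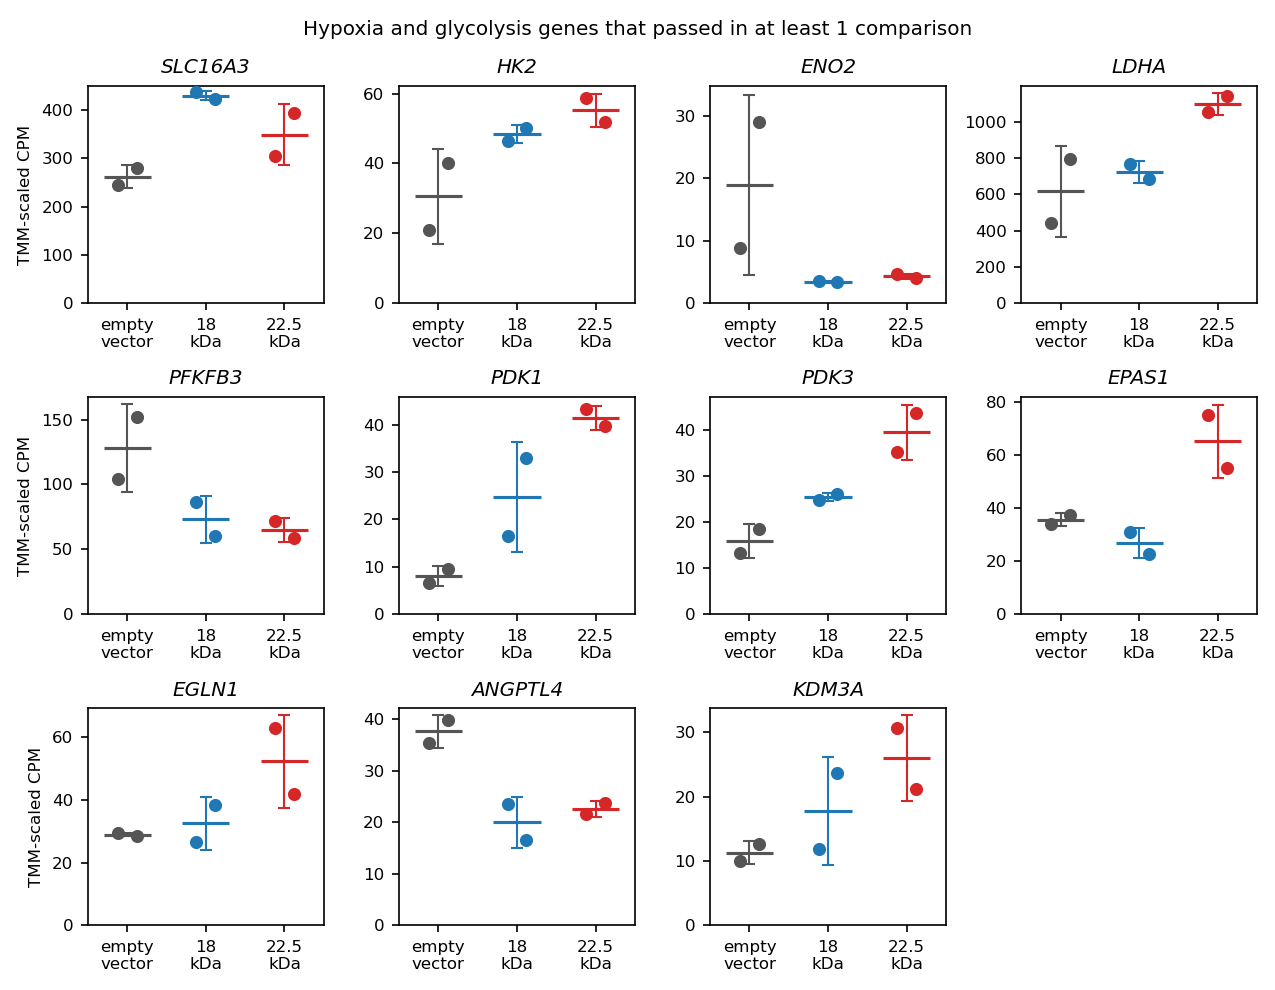
TMM-scaled CPM (vertical axis, from 0) of the 11 members that passed in at least 1 comparison, with 1 point per library, the group mean as a line and the SD as bars (n = 2). PDK1 and PDK3 step up from the empty vector to 18 and 22.5 kDa FGF2, EPAS1 is highest in the 22.5 kDa libraries, and ENO2 differs widely between the empty vector libraries.

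Of the HIF alpha subunits, EPAS1 rose with 22.5 kDa FGF2 and was the 1 member that separated the isoforms. EPAS1 (Entrez 2034) encodes HIF-2 alpha. It was at 34 and 37.3 CPM in the empty vector libraries, 30.8 and 22.7 with 18 kDa FGF2, and 75 and 55.3 with 22.5 kDa FGF2. Both 22.5 kDa libraries exceeded all others, and the 18 kDa libraries were the lowest. The test passed against the empty vector (log2 fold change 0.87 with SE 0.25 and adjusted p = 0.024) and against 18 kDa FGF2 (1.28 with SE 0.25 and adjusted p = 0.00539), and did not pass for 18 kDa against the empty vector (-0.41 with SE 0.26 and adjusted p = 0.403). Against the empty vector EPAS1 missed the threshold without empty vector library 1 (0.24), empty vector library 2 (0.126), 22.5 kDa library 1 (0.247) or 22.5 kDa library 2 (0.052), with scaling by library totals alone (0.0738) and without library 1 of both FGF2 groups (0.0558), with adjusted p-values of 0.00556 to 0.247 over its 13 alternatives. Against 18 kDa FGF2 it missed the threshold without 22.5 kDa library 1 (0.238) or 22.5 kDa library 2 (0.0696) and with scaling by library totals alone (0.0823), with adjusted p-values of 3.29e-06 to 0.238 over its 14 alternatives. HIF1A, the gene of HIF-1 alpha, which is controlled mainly through protein stability, was at 38.8 and 23.6 CPM in the empty vector libraries, 23.9 and 45.1 with 18 kDa FGF2, and 50.5 and 33.3 with 22.5 kDa FGF2. Its libraries varied about as much within groups as between them, and no comparison passed (adjusted p = 0.867, 0.521 and 0.788). Antisense transcripts overlap HIF1A, and its reads may include theirs, since no source used here states whether counting used the strand.

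The oxygen sensor EGLN1 (Entrez 54583, the prolyl hydroxylase PHD2) also rose with 22.5 kDa FGF2. Its levels were 29.3 and 28.5 CPM in the empty vector libraries, 26.5 and 38.5 with 18 kDa FGF2, and 62.9 and 41.9 with 22.5 kDa FGF2, with both 22.5 kDa libraries above the rest. It passed with 22.5 kDa (log2 fold change 0.86 with SE 0.27 and adjusted p = 0.0386) and not with 18 kDa FGF2 (0.17 with SE 0.27 and adjusted p = 0.792). The EGLN1 call missed the threshold without empty vector library 1 (0.199), empty vector library 2 (0.218), 22.5 kDa library 1 (0.356) or 22.5 kDa library 2 (0.052), with scaling by library totals alone (0.135), with DESeq2 (0.0539) and without library 1 of both FGF2 groups (0.135), with adjusted p-values of 0.0095 to 0.356 over its 13 alternatives. EGLN3, the hypoxia-inducible hydroxylase PHD3, was at 5.36 and 13.1 CPM in the empty vector libraries, 6.45 and 5.8 with 18 kDa FGF2, and 12.7 and 8.82 with 22.5 kDa FGF2. Empty vector library 2 and 22.5 kDa library 1 were the highest, the groups overlapped with the empty vector, and neither comparison with it passed (adjusted p = 0.498 and 0.825).

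Among secreted factors, ANGPTL4 fell with 18 kDa FGF2. ANGPTL4 (Entrez 51129), an inhibitor of lipoprotein lipase, was at 35.4 and 40.0 CPM in the empty vector libraries, 23.5 and 16.5 with 18 kDa FGF2, and 21.5 and 23.7 with 22.5 kDa FGF2. The empty vector libraries were the highest in both comparisons. With 18 kDa FGF2 it passed (log2 fold change -0.91 with SE 0.29 and adjusted p = 0.0457) and with 22.5 kDa it did not (-0.74 with SE 0.29 and adjusted p = 0.105). The call missed the threshold without empty vector library 1 (0.188), empty vector library 2 (0.345), 18 kDa library 2 (0.228), 22.5 kDa library 1 (0.0655) or 22.5 kDa library 2 (0.0875), with scaling by library totals alone (0.0545), with DESeq2 (0.0631) and with only both compared groups in the model (0.0634), with adjusted p-values of 0.0027 to 0.345 over its 14 alternatives. VEGFA, the angiogenic growth factor gene, was at 59.4 and 65.3 CPM in the empty vector libraries, 83.6 and 65.4 with 18 kDa FGF2, and 72.7 and 56.9 with 22.5 kDa FGF2. The 18 kDa libraries lay above the empty vector, 1 of them only just, the 22.5 kDa libraries overlapped with it, and neither passed (adjusted p = 0.58 and 0.924). ADM, the gene of the vasodilator adrenomedullin, was at 13.2 and 16.9 CPM in the empty vector libraries, 26.1 and 13.9 with 18 kDa FGF2, and 13.6 and 9.62 with 22.5 kDa FGF2, with 1 high library in the 18 kDa group and no passing test (adjusted p = 0.576 and 0.616).

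CA9, the gene of carbonic anhydrase IX, a surface enzyme widely used as a hypoxia marker, differed most between libraries of 1 group. It had 1 read in empty vector library 1 and 225 in library 2, a ratio of 236 after scaling (exact binomial 95% interval 41.9 to 9366, counting error only). Scaled, this was 0.179 and 42.2 CPM in the empty vector libraries, 0.307 and 3.51 with 18 kDa FGF2, and 2.9 and 8.42 with 22.5 kDa FGF2. All 4 FGF2 libraries fell between the 2 empty vector libraries. Neither comparison passed (log2 fold change -3.50 with SE 2.47 and adjusted p = 0.562 with 18 kDa, and -1.93 with SE 2.20 and adjusted p = 0.718 with 22.5 kDa FGF2). Without empty vector library 1, CA9 was lower and passed with both isoforms, at -4.49 (adjusted p = 2.52e-13) and -2.92 (adjusted p = 1.06e-06). Without empty vector library 2 it was higher with 22.5 kDa FGF2, at 4.80 (adjusted p = 0.000267). Over all alternatives its adjusted p ran from 2.52e-13 to 0.828 with 18 kDa and from 1.06e-06 to 0.88 with 22.5 kDa FGF2. CA9 and ALDOC were singled out after their values were seen.

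Of the remaining hypoxia-responsive genes, KDM3A rose with 22.5 kDa FGF2. KDM3A (Entrez 55818), a histone H3 lysine 9 demethylase, was at 10.0 and 12.6 CPM in the empty vector libraries, 11.8 and 23.7 with 18 kDa FGF2, and 30.7 and 21.2 with 22.5 kDa FGF2. The 22.5 kDa libraries lay above those of the empty vector, and 18 kDa library 2 reached into their range. It passed with 22.5 kDa (log2 fold change 1.20 with SE 0.36 and adjusted p = 0.0305) and not with 18 kDa FGF2 (0.65 with SE 0.36 and adjusted p = 0.333). The KDM3A call missed the threshold without empty vector library 1 (0.24), empty vector library 2 (0.0765), 22.5 kDa library 1 (0.259) or 22.5 kDa library 2 (0.0876) and with scaling by library totals alone (0.123), with adjusted p-values of 0.00344 to 0.259 over its 13 alternatives. BHLHE40, a transcriptional repressor gene, was at 80.1 and 64.7 CPM in the empty vector libraries, 55.7 and 35 with 18 kDa FGF2, and 55.1 and 43.3 with 22.5 kDa FGF2, with the empty vector libraries highest and no passing test (adjusted p = 0.102 and 0.173). ANKRD37 ranged over 4.22 to 8.26 CPM, again with the empty vector libraries highest and no passing test.

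The mitophagy receptors and the collagen hydroxylases did not pass in any comparison. BNIP3, whose product tethers damaged mitochondria for degradation, was at 27.5 and 47.3 CPM in the empty vector libraries, 42.8 and 66.8 with 18 kDa FGF2, and 50.2 and 42.5 with 22.5 kDa FGF2. BNIP3L, its close relative, was at 22 and 30.2 CPM in the empty vector libraries, 19 and 26.9 with 18 kDa FGF2, and 32.8 and 30.9 with 22.5 kDa FGF2. For both genes the groups overlapped with 18 kDa FGF2. P4HA1, a catalytic subunit of the prolyl hydroxylase that stabilises collagen, was at 19 and 26.3 CPM in the empty vector libraries, 13.5 and 23.5 with 18 kDa FGF2, and 29.2 and 21.6 with 22.5 kDa FGF2. P4HA2 was at 23.2 and 35.6 CPM in the empty vector libraries, 25 and 19.1 with 18 kDa FGF2, and 18.5 and 20.2 with 22.5 kDa FGF2. The log2 fold changes of these 4 genes lay between -0.60 and 0.55, with adjusted p-values of at least 0.238 against the empty vector.

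The 2 empty vector libraries differed in these genes by more than the median tested gene, with library 2 higher. Library 2 exceeded library 1 in 33 of 37 members (89.2%), where it did so in 54.4% of all tested genes, and the median difference was 0.45 on the log2 scale against 0.03. Of the 16 enzymes 15 were higher in library 2, LDHB being the exception, and their median difference was 0.49. CA9 had the widest difference of all 13124 tested genes between these libraries (6.34 on the log2 scale), and ALDOC (1.83) ranked 30 and ENO2 (1.69) ranked 48. Those differing by over 1 log2 unit were CA9, ALDOC, ENO2, EGLN3 (1.24) and PFKFB4 (1.13), 5 members (13.5%), where 3.9% of all genes did. Within 18 kDa FGF2 library 2 was higher in 14 members (37.8%, all genes 50.9%). Within 22.5 kDa FGF2 it was higher in 20 (54.1%, all genes 50.3%), among them 13 of 16 enzymes. The median difference of the 16 enzymes there was 0.47, about as large as between the empty vector libraries. HIF1A went the other way in the empty vector (-0.71), and BHLHE40 too (-0.31). These 2 libraries are the reference of both comparisons, and most calls moved with the one that was left out. Calls over all tested genes fell as well without either library, and a group of 1 library shows no spread of its own. With 22.5 kDa FGF2 the log2 fold change of EPAS1, 0.87 with all libraries, was 0.80 without library 1 and 0.94 without library 2. That of EGLN1, 0.86 with all libraries, was 0.88 and 0.84. By contrast, LDHA went from 0.83 to 0.46 and HK2 from 0.86 to 0.46 without library 1, and ENO2 from -2.13 to -1.02 without library 2. With 22.5 kDa FGF2, HK2, LDHA, PDK3, EPAS1, EGLN1 and KDM3A no longer passed without library 1, and ENO2, PFKFB3, EPAS1, EGLN1 and KDM3A without library 2. With 18 kDa FGF2, SLC16A3, PDK1 and ANGPTL4 no longer passed without library 1, and SLC16A3, ENO2, PFKFB3 and ANGPTL4 without library 2. Leaving out either 22.5 kDa library cost more of the 22.5 kDa calls than leaving out either empty vector library. The culture state of each library is not stated in the sources used here. Its part in the differences between libraries was not tested.

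**Figure D3:**
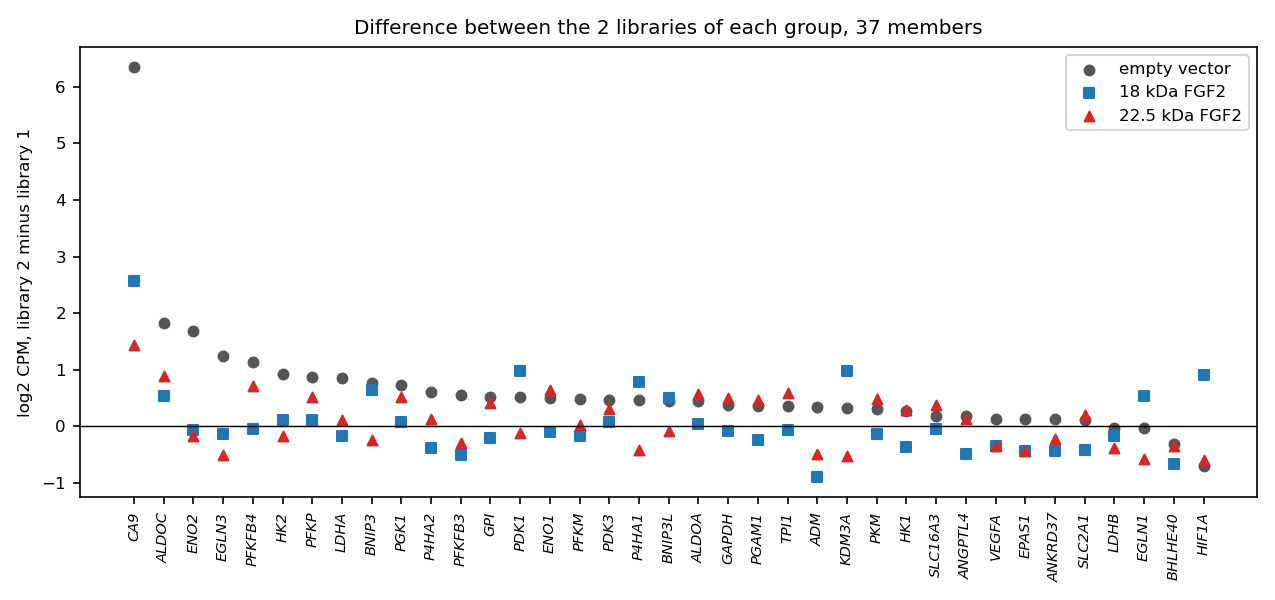
Difference in log2 CPM between library 2 and library 1 of each group (vertical axis) for the 37 tested members, ordered by the difference in the empty vector (grey circles), with 18 kDa (blue squares) and 22.5 kDa FGF2 (red triangles). In the empty vector 33 of 37 circles lie above 0 and CA9 reaches 6.34, whereas the points of the FGF2 groups lie on both sides.

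Several members that rose lie among neighbouring genes that were higher as well. For each gene the median log2 fold change of the 24 nearest tested genes was taken, 12 on each side in the RefSeq gene order, and over all 12519 such windows the central 90% ran from -0.37 to 0.42 with 18 kDa and from -0.30 to 0.60 with 22.5 kDa FGF2. PDK3 on chromosome X was at 1.32 with 22.5 kDa FGF2, and its neighbours had a median of 1.48 (percentile 99.8 of all windows). PDK1 on chromosome 2 was at 2.36 with 22.5 kDa FGF2 beside neighbours at 0.88 (percentile 99.2), and at 1.61 with 18 kDa FGF2 beside neighbours at 0.58 (percentile 97.7). PDK3 thus changed about as much as its neighbours, and PDK1 more. EPAS1, KDM3A and HK2, also on chromosome 2, were at 0.87, 1.20 and 0.86 with 22.5 kDa FGF2, beside neighbours at 0.76, 0.51 and 0.49 (percentiles 98.8, 92.8 and 92.2). With 18 kDa FGF2, where none of them passed, they were at -0.41, 0.65 and 0.66. Their neighbours there were at 0.41, 0.35 and 0.61 (percentiles 94.9, 93.7 and 98), opposite in sign to EPAS1. Between the isoforms EPAS1 differed by 1.28 and its neighbours by 0.22 (percentile 78.5). EGLN1 on chromosome 1 had neighbours at 0.33. By contrast, the neighbours of LDHA on chromosome 11 were at -0.07 and those of PFKFB3 on chromosome 10 at 0.29, opposite in sign to each of these genes. ENO2 on chromosome 12 had neighbours at -0.50 (percentile 0.951) with 22.5 kDa and at -0.15 with 18 kDa FGF2, where the gene itself fell by more than 2 on the log2 scale. SLC16A3 and ANGPTL4 had neighbours at 0.14 and 0.06 with 18 kDa FGF2. DNA copy number was not analysed here, and its part in these changes was not tested.

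**Figure D4:**
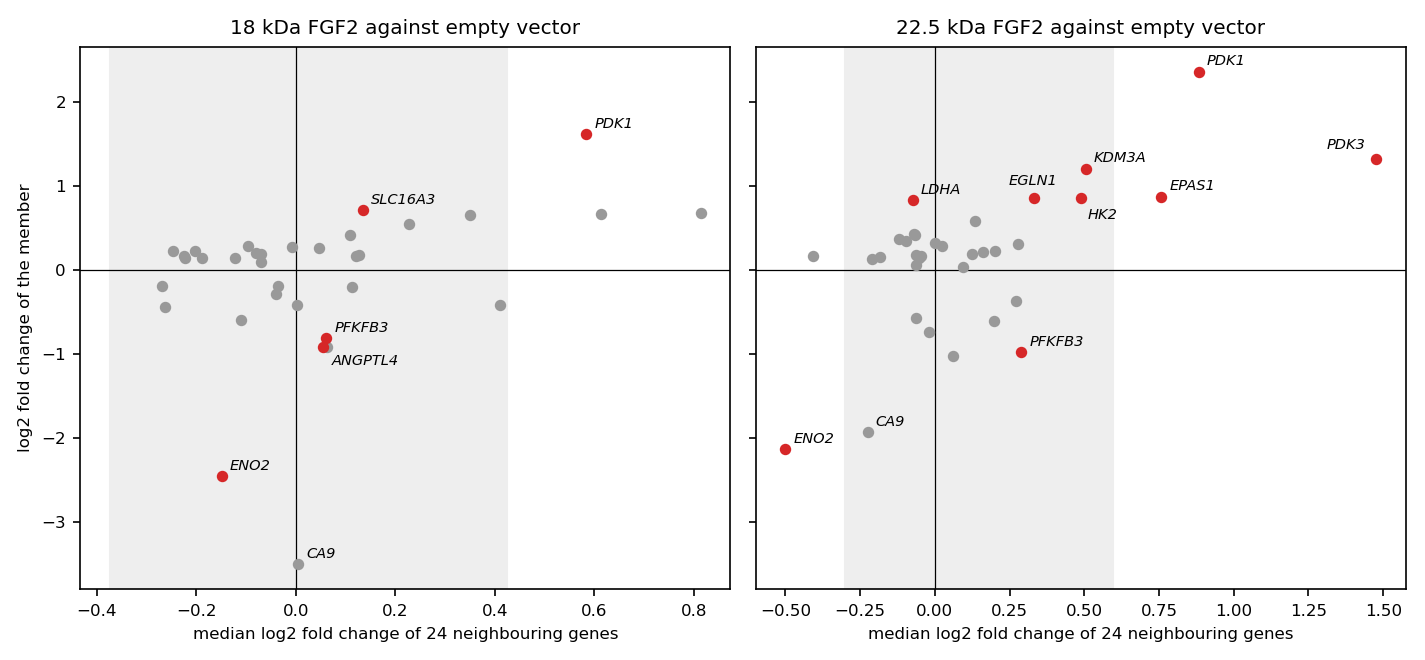
Log2 fold change of the tested members (vertical axis) against the median of their 24 neighbouring tested genes (horizontal axis), with 18 kDa (left) and 22.5 kDa FGF2 (right). PFKP, ANKRD37 and BHLHE40 had no full window of neighbours and are not shown. Red points passed the test, the grey band holds the central 90% of all windows, and in the right panel PDK3, PDK1 and EPAS1 lie to the right of it, while LDHA rose beside neighbours near 0.

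The balance between paralogs was compared as the log2 ratio of their reads within a library, which does not depend on scaling. Across libraries LDHA held 83.4 and 90.3% of the LDHA and LDHB reads in the empty vector, 91.9 and 92.0% with 18 kDa, and 90.7 and 93.3% with 22.5 kDa FGF2. The FGF2 libraries were above both empty vector libraries, though by little at the nearest pair (90.7 against 90.3%). The log2 ratio of ENO2 to ENO1 was -8.37 and -7.15 in the empty vector, -10.18 and -10.16 with 18 kDa, and -9.81 and -10.64 with 22.5 kDa FGF2. That of PDK3 to PDK1 was 1.00 and 0.94 in the empty vector, 0.58 and -0.35 with 18 kDa, and -0.29 and 0.14 with 22.5 kDa FGF2, so PDK1 gained on PDK3 in both. The ratio of ALDOC to ALDOA was also lower in all 4 FGF2 libraries (-5.53 to -5.02) than in the empty vector (-5.01 and -3.63), though by a margin of 0.01 at the nearest pair. For EPAS1 to HIF1A the values were -0.19 and 0.66, 0.37 and -0.99, and 0.57 and 0.73, with overlap against the empty vector. BNIP3 to BNIP3L was higher with 18 kDa FGF2 (1.17 and 1.31) than in the empty vector (0.32 and 0.65) or with 22.5 kDa FGF2 (0.61 and 0.46). Of the other pairs, HK2 to HK1 and P4HA2 to P4HA1 did not overlap between 22.5 kDa FGF2 and the empty vector. PFKP to PFKM and PFKFB4 to PFKFB3 did not overlap between 18 kDa FGF2 and the empty vector. EGLN3 to EGLN1 overlapped in every comparison, and SLC2A3 had no reads in some libraries. The CPM of 52 and 52.9% of all tested genes did not overlap with the empty vector either. The ratios are given as a description and were not tested.

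A wider list of 94 genes of the same pathways, of which 76 were tested, changed about as often as all genes. With 18 kDa FGF2 4 rose and 4 fell (10.5%), with 22.5 kDa 3 rose and 5 fell (10.5%), and between the isoforms 1 fell (1.32%). Among further glycolytic genes PFKL, the liver-type phosphofructokinase gene, rose with both, at 136 and 169 CPM in the empty vector libraries, 242 and 268 with 18 kDa FGF2, and 292 and 442 with 22.5 kDa FGF2 (log2 fold change 0.74 with SE 0.23 and adjusted p = 0.044, and 1.26 with SE 0.23 and adjusted p = 0.000495). PFKL lies on chromosome 21, and its neighbours were at 0.18 and 0.63. PFKL with 18 kDa FGF2 missed the threshold without empty vector library 1 (0.516), empty vector library 2 (0.122), 18 kDa library 1 (0.0526) or 18 kDa library 2 (0.0765) and with scaling by library totals alone (0.0542), with adjusted p-values of 0.000323 to 0.516 over its 14 alternatives. PFKFB2 fell with 18 kDa FGF2 (log2 fold change -1.16 with SE 0.36 and adjusted p = 0.04). It missed the threshold without empty vector library 1 (0.183), empty vector library 2 (0.202), 18 kDa library 1 (0.324), 22.5 kDa library 1 (0.0644) or 22.5 kDa library 2 (0.0943), with scaling by library totals alone (0.103), with DESeq2 (0.0525), with only both compared groups in the model (0.0847) and without library 1 of both FGF2 groups (0.137), with adjusted p-values of 0.00774 to 0.324 over its 14 alternatives. SLC2A4, the insulin-responsive transporter gene, fell with 22.5 kDa FGF2 against the empty vector (log2 fold change -1.42 with SE 0.44 and adjusted p = 0.0345) and against 18 kDa FGF2 (-1.95 with SE 0.43 and adjusted p = 0.0135), at 8.4 and 7.13 CPM in the empty vector libraries, 12.7 and 9.66 with 18 kDa FGF2, and 2.44 and 3.41 with 22.5 kDa FGF2. The first missed the threshold without empty vector library 1 (0.239), empty vector library 2 (0.0987), 22.5 kDa library 1 (0.223) or 22.5 kDa library 2 (0.11), with scaling by library totals alone (0.0519), with DESeq2 (0.0873) and without library 1 of both FGF2 groups (0.0914), with adjusted p-values of 0.0164 to 0.239 over its 13 alternatives. The second missed the threshold without 18 kDa library 1 (0.0631), 22.5 kDa library 1 (0.291) or 22.5 kDa library 2 (0.137), with scaling by library totals alone (0.0863) and without library 1 of both FGF2 groups (0.15), with adjusted p-values of 3.29e-06 to 0.291 over its 14 alternatives.

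Of 12 tested genes of pyruvate entry to mitochondria 1 passed with each isoform (8.33%, where 8.88 and 10.9% of all genes did). It was PDHA1, which encodes the catalytic subunit that the PDK kinases inhibit, and it rose. Its levels were 79.9 and 88.9 CPM in the empty vector libraries, 153 and 163 with 18 kDa FGF2, and 236 and 217 with 22.5 kDa FGF2 (log2 fold change 0.90 with SE 0.21 and adjusted p = 0.00517 with 18 kDa, and 1.43 with SE 0.21 and adjusted p = 3.98e-05 with 22.5 kDa FGF2). PDHA1 lies on chromosome X, and its neighbours were at 0.72 and 1.49. PDHA1 with 18 kDa FGF2 missed the threshold without empty vector library 1 (0.185) or empty vector library 2 (0.071), with adjusted p-values of 1.59e-05 to 0.185 over its 14 alternatives.

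Of 14 tested HIF pathway regulators 1 passed with 18 kDa (7.14%, all genes 8.88%) and 2 with 22.5 kDa FGF2 (14.3%, all genes 10.9%), shares near those of all genes. The ubiquitin ligase gene SIAH2, whose product destabilises prolyl hydroxylases, fell with both isoforms, at 75.6 and 84.4 CPM in the empty vector libraries, 39.4 and 40.9 with 18 kDa FGF2, and 37.9 and 50.7 with 22.5 kDa FGF2 (log2 fold change -0.99 with SE 0.23 and adjusted p = 0.00549, and -0.86 with SE 0.23 and adjusted p = 0.0152). SIAH2 with 18 kDa FGF2 missed the threshold without empty vector library 2 (0.109), with adjusted p-values of 0.000694 to 0.109 over its 14 alternatives. SIAH2 with 22.5 kDa FGF2 missed the threshold without empty vector library 1 (0.0755), empty vector library 2 (0.2) or 22.5 kDa library 1 (0.142), with adjusted p-values of 0.00452 to 0.2 over its 13 alternatives. EGLN2, the third prolyl hydroxylase gene, fell with 22.5 kDa FGF2 (log2 fold change -0.67 with SE 0.21 and adjusted p = 0.0378), whereas EGLN1 rose. The EGLN2 call missed the threshold without empty vector library 1 (0.164), empty vector library 2 (0.372), 22.5 kDa library 1 (0.158) or 22.5 kDa library 2 (0.0626), with adjusted p-values of 0.0175 to 0.372 over its 13 alternatives. Of 26 tested further hypoxia-responsive genes 3 passed with each isoform (11.5%), again near the share of all genes: STC2 rose and CA12 and VLDLR fell with both. CA12, a carbonic anhydrase gene that estrogen also regulates, was at 109 and 161 CPM in the empty vector libraries, 5.68 and 4.22 with 18 kDa FGF2, and 7.18 and 5.61 with 22.5 kDa FGF2 (log2 fold change -4.76 with SE 0.30 and adjusted p = 6.35e-11, and -4.39 with SE 0.30 and adjusted p = 1.85e-10). VLDLR, a lipoprotein receptor gene, was at 2.86 and 6.38 CPM in the empty vector libraries, 0.614 and 0.878 with 18 kDa FGF2, and 0.611 and 0.2 with 22.5 kDa FGF2 (log2 fold change -2.60 with SE 0.60 and adjusted p = 0.00484, and -3.36 with SE 0.66 and adjusted p = 0.00103). VLDLR with 18 kDa FGF2 missed the threshold without empty vector library 2 (0.18) or 18 kDa library 1 (0.0547) and with DESeq2 (0.101), with adjusted p-values of 0.000578 to 0.18 over its 14 alternatives. VLDLR with 22.5 kDa FGF2 missed the threshold without 22.5 kDa library 2 (0.0777), with adjusted p-values of 2.58e-05 to 0.0777 over its 13 alternatives. STC2, a secreted glycoprotein gene, was at 54.9 and 57 CPM in the empty vector libraries, 101 and 90.1 with 18 kDa FGF2, and 127 and 88.8 with 22.5 kDa FGF2 (log2 fold change 0.77 with SE 0.22 and adjusted p = 0.03, and 0.95 with SE 0.22 and adjusted p = 0.0058). STC2 with 18 kDa FGF2 missed the threshold without empty vector library 1 (0.282), empty vector library 2 (0.194) or 18 kDa library 1 (0.0963) and with scaling by library totals alone (0.112), with adjusted p-values of 0.00648 to 0.282 over its 14 alternatives. STC2 with 22.5 kDa FGF2 missed the threshold without empty vector library 1 (0.0933), empty vector library 2 (0.0651) or 22.5 kDa library 1 (0.117), with adjusted p-values of 0.000797 to 0.117 over its 13 alternatives.

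Between the isoforms the members lay closer together. EPAS1 passed, and the other 36 tested members did not, with log2 differences of 22.5 against 18 kDa FGF2 from -0.78 (ADM) to 1.57 (CA9). The groups did not overlap for 12 members higher and 3 lower (all genes 19.1% and 19%). Among these members PDK1 differed by 0.75 (SE 0.32, adjusted p = 0.336) and PDK3 by 0.64 (SE 0.28, adjusted p = 0.353). LDHA differed by 0.60 (SE 0.26, adjusted p = 0.332) and LDHB by 0.58 (SE 0.22, adjusted p = 0.236). A larger rise of PDK1, PDK3 or LDHA with 22.5 kDa FGF2 was therefore not shown in the fit of all libraries. With the replicate pairing crossed, a pairing that no label states, PDK1 and EGLN1 also passed (adjusted p = 0.0142 and 0.035). Without 18 kDa library 2, in whose group PDK1 was at 16.6 and 33.0 CPM, PDK1 and ADM also passed. EGLN1 differed by 0.69 (SE 0.27, adjusted p = 0.253) and KDM3A by 0.56 (SE 0.35, adjusted p = 0.558). The median difference over the 37 members was 0.19, and 0.02 over all tested genes.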

How the data were processed

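RNA sequencing measured mRNA in 6 libraries of T47D-YA cells, 2 in each of 3 groups taken from the labels. Libraries were directional and paired-end, from TriReagent RNA, per the labels' protocols. The authors deposited raw read counts by Entrez gene, with no normalization. Per the submitters' processing notes the build was hg19 and edgeR was used, whereas aligner, counter and strand setting are not stated in the sources used here. Names, gene order and promoter windows came from RefSeq (GRCh38.p14), which named 23308 of 23459 genes. It is another build than the counts, so it was used only for names, neighbours and sequence.

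All 6 libraries entered 1 robust quasi-likelihood fit in edgeR 4.0.16 under R 4.3.3, with TMM factors and 3 residual degrees of freedom, over the 13124 genes that filterByExpr kept. Tests were two-sided, with Benjamini-Hochberg adjustment over all tested genes, and adjusted p-values come from edgeR except where DESeq2 is named. CPM are TMM-scaled. The fold changes by library use log2 CPM with a prior count of 2. The alternatives were RLE factors, library totals alone, DESeq2 1.42.0, no count filter, only the compared groups, the replicate number as a block, and each library left out in turn. The members and lists were chosen with earlier results of these data known. The rule for named genes takes every member that passed in a comparison, the 2 members with the highest mean CPM in each role where fewer than 2 passed, and up to 4 passing genes of each wider list. The neighbour windows were added after the data were seen. Replicates differed by more than counting noise (chi-square per degree of freedom 6.20, 14.3 and 14.3). A result of the wider lists is not reported here.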

Additional observations from a re-analysis of the deposited data

How the results depend on the processing

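With RLE factors or no count filter, the same 5, 9 and 1 members passed in the comparisons of 18 kDa and 22.5 kDa FGF2 with the empty vector and of 22.5 with 18 kDa FGF2. Scaling by library totals alone left 2, 4 and 0 members (70 genes in all between the isoforms, against 207), and DESeq2 left 3, 7 and 1. With only the compared groups in the model 3, 9 and 1 members passed. Leaving out 1 library gave 2 to 5, 1 to 10 and 0 to 3 members, and 617 to 1440, 630 to 1964 and 37 to 733 genes in all, against 1165, 1431 and 207. Chosen after seeing the data, leaving out library 1 of both FGF2 groups gave 1915, 2535 and 354 genes in all, and 7, 8 and 1 members. Without a count filter 445 genes passed between the isoforms. The replicate numbers carry no stated pairing, and the deviations of same-numbered libraries correlated at -0.27 (18 kDa and empty vector), 0.39 (22.5 kDa and empty vector) and -0.41 (between the isoforms). With the replicate number as a block, 7, 10 and 2 members and 1210, 1523 and 337 genes passed. The members gained were ALDOC and CA9 with 18 kDa FGF2, ALDOC with 22.5 kDa FGF2, and CA9 between the isoforms. Some members passed only in fits that left 1 library in a group. Among them were HK2, BNIP3, KDM3A and BHLHE40 with 18 kDa FGF2, and PGAM1, ENO1 and BHLHE40 with 22.5 kDa FGF2. With the pairing crossed, 5 members and 1653 genes passed for 18 kDa FGF2, and 3 members and 1190 genes between the isoforms. The log2 fold change of CA9 with 22.5 kDa FGF2 was -2.92 without empty vector library 1 and turned to 4.80 without library 2. The causes of these shifts between settings were not tested. At these depths genes with few reads, such as SLC2A3 with at most 2, could not be tested.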
